A study of Mus musculus with 21 samples.

Results

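Mouse T cells lacking the DNA-modifying enzymes TET2 and TET3 were grown in recipient mice, and their RNA was set against that of wild type T cells. The comparison rests on 9 of the 21 libraries of the series: 4 libraries of cells recovered after a first transfer (first-transfer cells, replicates 1 to 4) and 5 of wild type CD4 T cells (WT, replicates 1 to 5). Another 5 libraries of CD4 T cells taken directly from knockout mice (DKO) served to sort the genes, by whether the DKO cells had already moved away from WT or still lay at the WT level. The 7 libraries of a second transfer were not used.

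All cells came from spleen. The DKO and first-transfer cells carry the genotype Tet2-/-Tet3flx/flxCD4cre, that is, a Tet2 deletion in every cell and a floxed Tet3 removed by a Cre recombinase driven by the Cd4 promoter, which is active in developing T cells. WT cells are labelled wild type. The first-transfer cells descend from DKO CD4 cells given to CD45.1+ hosts and are recognised by the donor marker CD45.2. WT and DKO cells were sorted as CD4+CD25- TCRb+ and negative for the aGalCerCd1d tetramer, which stains invariant natural killer T (NKT) cells, whereas the gate stated for transferred cells is live, CD45.2+ and CD45.1- and names no CD4; their label adds TCRb+. Genotype, transfer, host and gate therefore all differ between first-transfer and WT cells and cannot be told apart in that comparison. The WT libraries are male, and first-transfer replicate 3 and DKO replicate 2 are female. DKO replicates 4 and 5 are described as young, and no ages are used here.

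TET enzymes oxidise 5-methylcytosine and so open the way to DNA demethylation. In T cells, TET2 and TET3 are known for roles in lineage stability, for instance in keeping Foxp3 expressed in regulatory T cells and in restraining the expansion of NKT cells. A resting naive CD4 T cell keeps homing and survival genes such as Ccr7 and Il7r on, divides little and has low metabolic demand. On activation it switches on cell cycle, glycolysis and effector genes, and ribosome production is driven in large part by the transcription factor MYC.

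Reads assigned to genes ranged from 26918548 to 30661183 over the 14 libraries, and 16.9 to 23.4% of reads lay outside annotated genes. Levels below are CPM, read counts scaled to library size with TMM normalisation, and they are compared between libraries for 1 gene at a time. No pair of libraries of a group agreed within sampling noise. The labels name no animals, so p-values measure the spread between these libraries. Within each group, a larger share of multimapping reads set replicates 4 and 5 (8.04 to 10%) apart from replicates 1 to 3 (6.58 to 7.80%). Among replicates 1 to 3 alone, 5308 genes differed between first-transfer and WT cells, against 6617 in all libraries. The first-transfer set with the larger share holds 1 library and gives no value of its own.

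Some libraries stood apart and bear on what follows. Cd4 itself, the defining marker of the sorted WT cells, was at 1011, 0.352, 27.4 and 0.136 CPM in first-transfer replicates 1 to 4, against 1443 to 1542 in WT and 1077 to 1827 in DKO. Replicate 1 lay near the WT range and the other three far below it. Cd4 did not pass the test over 4 libraries (log2 fold change -2.52, adjusted p = 0.267) and did so over replicates 2 to 4, at -7.30 with adjusted p = 0.00532. Cd8a, the other coreceptor, was at 0.0339 to 0.0703 CPM. T cell identity genes were present in every first-transfer library: Cd3e, a chain of the receptor complex, at 185 to 404 CPM and Trac, the alpha chain constant gene, at 576 to 1209 CPM, against 394 ± 57.9 CPM and 1889 ± 475 CPM (SD, n = 5) in WT. In bulk RNA, fewer cells of a type and less RNA per cell cannot be told apart.

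In T cell receptor rearrangements, each first-transfer library was dominated by 1 rearrangement of each chain, which differed between libraries. The leading alpha chain (TRA) rearrangement took 83.2, 75.4, 84.1 and 88.1% of TRA reads in replicates 1 to 4, among 2 to 11 rearrangements in all. In WT the leading one took 0.218, 1.48, 0.779, 0.261 and 1.66%, among 3511 to 4180. The 95% exact binomial (Clopper-Pearson) intervals cover counting error alone; for the first-transfer library with the widest one, replicate 2, it ran from 73.9 to 76.8%. The means were 82.7 ± 5.34% (SD, n = 4) and 0.879 ± 0.670% (SD, n = 5), and the groups did not overlap. The difference of 81.8 percentage points gave p = 0.0159 in a two-sided exact permutation test, the smallest this design allows, and 0.0318 adjusted over the 2 chains. For the beta chain (TRB), the leading rearrangement took 91.0, 94.1, 89.3 and 85.6% against 0.153 to 0.783% in the 3 WT libraries analysed, and here the smallest p that 4 against 3 can reach, 0.0571, was obtained. A spread between first-transfer replicates is therefore also one between dominant receptors.

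**Figure D1:**
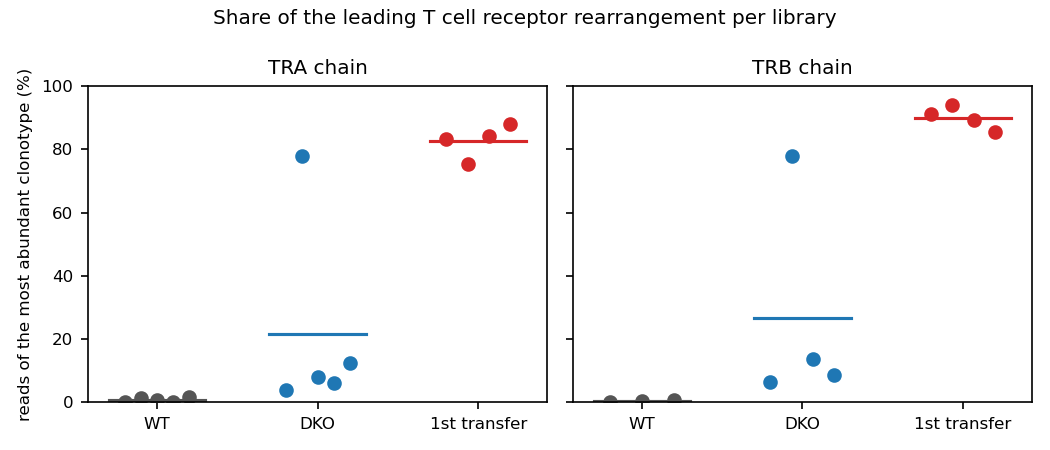
Share of TRA (left) and TRB (right) reads, in percent, that the most abundant rearrangement took in each library, with 1 point per library and a line at the mean of each group. First-transfer libraries lay between 75.4 and 94.1%, WT libraries at 1.66% or less, and DKO replicate 2 at 77.9 (TRA) and 77.8% (TRB), above the other DKO libraries.

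The nucleotide sequences of the junctions (CDR3) of the leading rearrangements are shown because they identify the dominant receptors. The capitals mark the first and last codon, a cysteine codon and a phenylalanine codon. The chain loci lie on chromosomes 14 (TRA) and 6 (TRB).
Replicate 1, TRA (TRAV4-4-DV10, TRAJ50): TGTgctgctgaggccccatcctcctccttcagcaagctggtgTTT
Replicate 1, TRB (TRBV3, TRBJ2-7): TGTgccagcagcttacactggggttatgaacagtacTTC
Replicate 2, TRA (TRAV4-2, TRAJ9): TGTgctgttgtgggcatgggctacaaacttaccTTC
Replicate 2, TRB (TRBV13-2, TRBJ2-7): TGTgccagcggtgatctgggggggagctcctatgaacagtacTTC
Replicate 3, TRA (TRAV8N-2, TRAJ18): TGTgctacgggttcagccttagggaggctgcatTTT
Replicate 3, TRB (TRBV13-2, TRBJ2-3): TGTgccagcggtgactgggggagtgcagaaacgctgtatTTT
Replicate 4, TRA (TRAV9N-3, TRAJ21): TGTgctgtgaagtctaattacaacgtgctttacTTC
Replicate 4, TRB (TRBV13-3, TRBJ2-2): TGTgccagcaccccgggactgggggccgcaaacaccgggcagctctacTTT

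All 8 leading junctions were in frame and differed between replicates. Invariant NKT cells join TRAV11 to TRAJ18, and none of the 4 leading TRA rearrangements had that pair. In replicates 2, 3 and 4 the second rearrangement of each chain was out of frame, with 24.5, 15.9 and 11.5% of TRA reads and 5.83, 10.7 and 14.1% of TRB reads. Replicate 1 differed: its second TRB rearrangement, at 8.65%, and a further TRA rearrangement, at 5.51%, were in frame. The leading TRA junction of replicate 3 also appeared as 1 read in each of DKO replicates 4 and 5 and WT replicate 5, and its TRB junction as 1 read in WT replicate 4. The 4 leading TRB rearrangements used segments of the second J cluster. Trbc2, the constant gene of that cluster, was at 1122, 812, 763 and 855 CPM, while Trbc1, that of the first cluster, was at 841, 0.211, 0.102 and 3.16 CPM against 442 to 529 in WT. These constant genes are close copies, so counts between them are uncertain.

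DKO replicate 2 needs the same care, since 77.9% of its TRA reads were 1 rearrangement, against 3.86 to 12.5% in the other 4 DKO libraries. Among the 1825 genes that were lower in both DKO and first-transfer cells, it was the lowest DKO library in 1023 (56.1%), and each other DKO library in 4.93 to 16.1%. Among the 2150 that were higher in both, it was the highest in 1080 (50.2%), against 4.6 to 25.2%. Among genes higher after transfer with DKO at the WT level, described below, replicate 3 was instead the highest DKO library in 43.1% and replicate 2 in 23.2%. Without replicate 2, 2154 higher and 1764 lower genes were already shifted in DKO, and 755 and 503 had DKO at the WT level. Genes that fell after transfer, having risen in DKO, then numbered 43 in place of 24.

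Of the targeted genes, Tet3 was lowered in both knockout groups. Tet3 was at 82.5, 86.8, 92.5 and 74.8 CPM in first-transfer cells, 105, 90.9, 99, 93.3 and 87.6 in DKO and 205, 186, 217, 173 and 198 in WT, and both knockout groups lay below every WT library. Tet3 fell against WT (log2 fold change -1.21, SE 0.116, adjusted p = 4.42e-05). Tet2 was at 40.5 ± 18.1 CPM (SD, n = 4) and 43.4 ± 8.46 CPM (SD, n = 5) and did not pass the test (log2 fold change -0.09, SE 0.261, adjusted p = 0.791). Counts run over whole genes, so reads from undeleted exons are included and neither value measures the deletion itself. Tet1, the family member that was not targeted, fell from 30.3, 31, 41.1, 27 and 46.1 CPM in WT to 0.439, 0.176, 0.785 and 10.6 in first-transfer cells, with DKO at 3.56 to 11.4. Replicate 4 lay in the DKO range and the other three below. Over 4 libraries Tet1 changed by -3.53 on the log2 scale (adjusted p = 0.0211), by -6.20 with adjusted p = 3.4e-05 without replicate 4, and -3.20 with adjusted p = 0.0519 without replicate 3. Uhrf1, which guides maintenance methylation in dividing cells, rose (log2 fold change 3.92, SE 0.455, adjusted p = 0.000146), and Idh2, a mitochondrial enzyme that makes the TET cofactor 2-oxoglutarate, fell (log2 fold change -1.98, SE 0.307, adjusted p = 0.000674). Of 16 genes of the DNA methylation list, 5 rose and 7 fell, and 2 rose without first-transfer replicate 4. Over all tested genes 26.1% rose and 22.1% fell.

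Of 13748 genes tested in edgeR's quasi-likelihood test, 6617 (48.1%) differed between first-transfer and WT cells at a Benjamini-Hochberg adjusted p below 0.05, which is what rose and fell mean throughout. Of these, 3583 (26.1% of genes tested) rose and 3034 (22.1%) fell, and the median log2 fold change of the tested genes was 0.02. DKO differed from WT in 5915 genes (43% of those tested; 22.5% higher and 20.5% lower), and first-transfer cells from DKO in 2774 (20.2%; 12.1% higher and 8.05% lower). First-transfer and WT libraries did not overlap in 41.7% of tested genes, 21.1% higher and 20.6% lower. Both contrasts with WT use the same WT libraries, so a gene's values in them are not independent and are given side by side. Leaving out 1 first-transfer or WT library at a time, 3076 to 4002 genes rose and 2497 to 3869 fell, the highest counts being those without first-transfer replicate 1.

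With all libraries and fits of each pair of groups, most of the genes called after transfer were already shifted in DKO. Of the 3583 genes that rose, 2150 (60%) were also higher in DKO than in WT, and 460 of those rose further from DKO to first-transfer cells, 6 came partway back and 1684 showed no further call. Of the 3034 that fell, 1825 (60.2%) were already lower in DKO, of which 369 fell further, 7 came partway back and 1449 showed no further call. A second class had DKO at the WT level: DKO against WT was not called and lay within 1 on the log2 scale, and first-transfer against DKO was called in the same direction. It held 798 of the genes that rose (22.3%) and 491 of those that fell (16.2%). In a small class DKO had moved the other way from WT, with 58 genes that rose and 24 that fell after transfer. The remaining 577 and 694 genes were not placed by these tests. The majority already shifted was not kept in every setting. Without the 2 DKO libraries described as young, it was 1746 of 3583 genes that rose and 1262 of 3034 that fell. Among libraries numbered 1 to 3 it was 1448 of 3011 and 942 of 2297, and in 1 fit of all 3 groups 1930 of 3920 and 1541 of 3492.

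**Figure D2:**
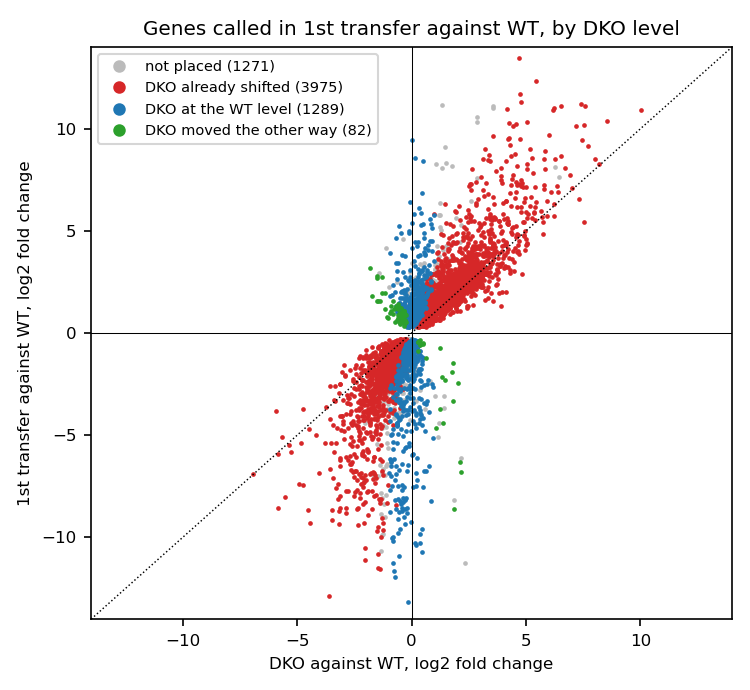
Log2 fold change of DKO against WT (horizontal) and of first-transfer cells against WT (vertical) for the 6617 genes called in the latter, with 1 point per gene and colours for the classes. Genes already shifted (3975) lay in the quadrants of equal sign, genes with DKO at the WT level (1289) near the vertical axis, and the 82 that had moved the other way in the opposite quadrants. Both axes share the WT libraries.

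The WT-level class depends on which DKO libraries are used. Without the 2 DKO libraries described as young, first-transfer against DKO gave 3 called genes in place of 2774, and no gene could be placed at the WT level. A DKO difference that missed the test is not shown to be absent. The genes of this class were chosen for a call between these same libraries, so their separation is only a description. In 558 of the 798 genes that rose (69.9%) all 4 first-transfer libraries lay above all 5 DKO libraries, and in 401 of the 491 that fell (81.7%) all lay below. Over all tested genes the shares were 9.25 and 9.26%, and nothing is read from that contrast. With DKO replicates 1 to 3 alone as the reference the counts were 597 and 406. These counts were added after the data were seen and use the same libraries as the class.

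Genes of innate-like and type 17 T cells were raised in DKO already, and several rose further after transfer. Of 15 tested genes of this list, 14 rose, 13 of them already in DKO and 7 of them further, with a median log2 fold change of 4.23 against WT (3.67 for DKO). Over all tested genes 26.1% rose. Of all genes that rose, 60% had already risen in DKO and 12.8% had done so and rose further. Zbtb16 encodes PLZF, the transcription factor that directs innate-like T cell programmes. It stood at 0.303, 0.91, 0.59, 0.859 and 0.743 CPM in WT, 1.76, 11.8, 8.09, 13.3 and 8.77 in DKO and 62, 233, 192 and 185 in first-transfer cells. The 3 groups did not overlap, and first-transfer cells exceeded WT (log2 fold change 7.95, SE 0.475, adjusted p = 4.73e-06), as did DKO by less (log2 fold change 3.67, SE 0.5, adjusted p = 0.000243). Il23r, the receptor for IL-23, went from 0.151, 0.0728, 0.0738, 0.0716 and 0.0742 CPM in WT through 6.12, 12.3, 2.31, 5.94 and 3.17 in DKO to 36.4, 165, 78.6 and 27.6 after transfer (log2 fold change 9.70, SE 0.697, adjusted p = 1.26e-05).

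Within the same list the first-transfer replicates differed in degree. Blk, a kinase of B cells and of IL-17-producing γδ T cells, was at 10.8, 335, 124 and 39.1 CPM in the 4 replicates against 0.0379 to 0.322 in WT, and Il17re, a receptor subunit of the IL-17 family, at 12.2, 103, 57 and 31.4 against 0 to 0.43. Replicate 2 was highest and replicate 1 lowest for both. Il1r1, the IL-1 receptor, was at 10.3, 78.3, 2.97 and 1.43 CPM and rested on replicate 2: its log2 fold change was 4.30 (adjusted p = 0.0161), and 2.06 with adjusted p = 0.0704 without that library. Ccr6, the receptor for CCL20, had a higher mean in DKO (19.7 ± 15.2 CPM, SD, n = 5) than after transfer (7.82 ± 6.55 CPM, SD, n = 4), a difference that did not pass the test (adjusted p = 0.242). Rora, a nuclear receptor, was the list member that did not pass the test (log2 fold change 0.11, SE 0.368, adjusted p = 0.818). Il17a was below the limit for testing.

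The constant genes of the γ chain locus followed the same course. Tcrg-C1 was at 0.682, 1.13, 0.664, 1.75 and 1.6 CPM in WT, 18.4, 46.4, 17.5, 35.6 and 25.8 in DKO and 110.5, 493, 438 and 279 in first-transfer cells (log2 fold change 8.15, SE 0.546, adjusted p = 8.78e-06). Tcrg-C2 and Tcrg-C4 reached 133 to 874 and 53.6 to 608 CPM after transfer, against 0.59 to 2.94 and 0.568 to 1.43 in WT. Trdc, the δ chain constant gene that defines γδ T cells, fell from 9.47, 8.95, 9.66, 8.7 and 11.6 CPM in WT to 0.135, 0, 0 and 0, that is, no read in 3 of 4 libraries. The Tcrg constant genes are close copies of each other, and counts between them are uncertain.

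The homing and chemokine receptor list held 20 tested genes, of which 7 rose and 3 fell, where 26.1% of all tested genes rose and 22.1% fell, and 8 rose and 5 fell without first-transfer replicate 1. Ccr2, a receptor that guides cells to inflamed tissue, was at 6.7, 8.44, 6.31, 29.5 and 17.4 CPM in WT, 36.3 to 103 in DKO and 148, 538, 359 and 808 after transfer (log2 fold change 5.10, SE 0.648, adjusted p = 0.000259). Cxcr6, a homing receptor of innate-like and resident T cells, rose by 4.16 on the log2 scale (SE 0.469, adjusted p = 0.000122), and both rose further beyond DKO. Klrb1c, which encodes NK1.1, a marker of NK and NKT cells, was at 64.5, 319.6, 218 and 83.2 CPM against 1.92 to 5.12 (log2 fold change 5.72, SE 0.58, adjusted p = 7.35e-05). Cd160, another receptor shared with NK cells, was at 89.5, 229.8, 333 and 227 CPM against 4.17 to 7.13 in WT and 65.5 to 182 in DKO, without a call between the knockout groups (adjusted p = 0.063).

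**Figure D3:**
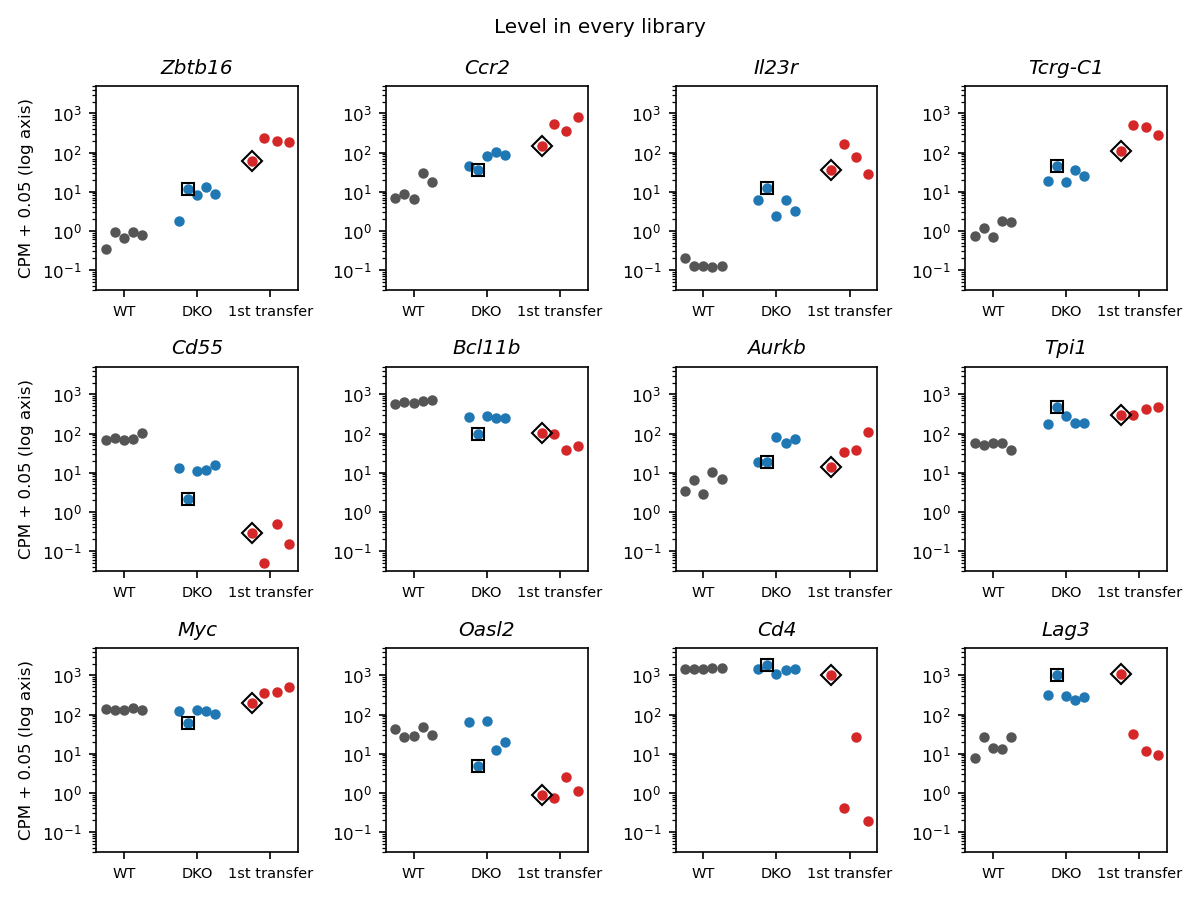
Level of 12 genes in every library, as CPM plus 0.05 on a log axis, with squares around DKO replicate 2 and diamonds around first-transfer replicate 1. Zbtb16, Ccr2, Il23r and Tcrg-C1 stepped up and Cd55 and Bcl11b stepped down from WT through DKO to first-transfer cells, with DKO replicate 2 within the first-transfer range for Bcl11b, while Cd4 and Lag3 parted first-transfer replicate 1 from replicates 2 to 4.

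Genes of the naive, resting state fell, and again most had begun to fall in DKO. Of 16 tested members 14 fell, 13 of them already in DKO and 6 of them further, and the median log2 fold change was -2.7 against -1.31 in DKO. Over all tested genes 22.1% fell. Of all genes that fell, 60.2% had already fallen in DKO and 12.2% had done so and fell further. Cd55, a complement regulator of resting T cells, ran from 66.3, 74.8, 67.5, 74.5 and 102 CPM in WT through 13, 2.08, 11.2, 11.8 and 15.3 in DKO to 0.236, 0, 0.444 and 0.102 after transfer (log2 fold change -8.57, SE 0.59, adjusted p = 9.79e-06). Every first-transfer library lay below every DKO library, among which replicate 2 was lowest. Ly6c1, a surface antigen, fell to 0.0338, 0.0703, 0.307 and 2.24 CPM from 112 to 205, with DKO at 1.48 to 55. Among regulators of the naive state, Foxo1 fell (log2 fold change -2.81, SE 0.294, adjusted p = 7.16e-05), and so did Ccr7, a receptor for lymph node homing (log2 fold change -3.17, SE 0.294, adjusted p = 3.81e-05).

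Il7r and Klf2 were the members that did not pass the test. Il7r, the survival receptor for IL-7, was at 378, 1786, 1407 and 826 CPM after transfer against 539.7 to 831 in WT and 158 to 347 in DKO. It was lower in DKO than in WT (log2 fold change -1.22, SE 0.196, adjusted p = 0.000656) and higher after transfer than in DKO (log2 fold change 2.05, SE 0.406, adjusted p = 0.0111), whereas first-transfer against WT gave 0.85 (adjusted p = 0.0856). Klf2, which maintains quiescence and homing, was at 466, 338, 42.5 and 212 CPM against 604 to 809 (log2 fold change -1.38, SE 0.521, adjusted p = 0.0528).

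Of 22 tested genes of T cell receptor signalling 9 fell, 2 rose and 11 were not called, where 22.1% of all tested genes fell, and the median log2 fold change was -0.42. Bcl11b, a transcription factor that fixes T cell commitment, went from 559, 639, 600.4, 695 and 730.5 CPM in WT through 271, 96.5, 274, 248 and 247 in DKO to 102, 97.6, 38.3 and 48.8 (log2 fold change -3.16, SE 0.308, adjusted p = 4.84e-05). In the signalling list Lat, the membrane scaffold of the receptor signal, was at 581, 587, 589, 586 and 475 CPM in WT and 606, 282, 484, 499 and 501 in DKO but 159, 122.9, 96.7 and 103 after transfer (log2 fold change -2.22, SE 0.171, adjusted p = 1.49e-05), and so counts among genes with DKO at the WT level. Cd247, the ζ chain, had already fallen in DKO (log2 fold change -0.88, SE 0.137, adjusted p = 0.000541) and fell further, to -1.62 against WT. Without first-transfer replicate 1, 14 of the 22 fell. Il4ra, the IL-4 receptor chain, was at 258 to 406 CPM in WT, 54.7 to 136 in DKO and 18.8 to 39.2 after transfer (log2 fold change -3.48, SE 0.253, adjusted p = 1.13e-05). Among 32 cytokine receptor and JAK-STAT genes 9 fell and 6 rose, and 17 fell and 8 rose without replicate 1. Of 12 coreceptor and lineage genes 5 rose and 4 fell: Zbtb7b, which encodes the CD4 lineage regulator ThPOK, fell (log2 fold change -0.91, SE 0.232, adjusted p = 0.00923), and Runx3, a CD8 lineage regulator, rose (log2 fold change 0.43, SE 0.101, adjusted p = 0.00611), both with no further call beyond DKO.

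Cell division genes rose as a block and were likewise higher in DKO than in WT. All 26 mitosis genes rose, all 26 were already higher in DKO, and none was called between DKO and first-transfer cells, with medians of 2.54 after transfer and 2.75 in DKO on the log2 scale. Aurkb, the chromosomal passenger kinase, was at 3.37, 6.29, 2.73, 10.3 and 6.76 CPM in WT, 19.2, 18.9, 80.9, 57.1 and 73.4 in DKO and 14, 33, 37.3 and 110.5 after transfer (log2 fold change 3.06, SE 0.601, adjusted p = 0.00268). The last 2 groups overlapped, and replicate 4 was highest. All 32 DNA replication genes rose, 28 of them already in DKO. Mcm10, a factor that starts replication forks, was at 2.16 to 4.12 CPM in WT, 12.4 to 43.4 in DKO and 14.7 to 77.1 after transfer (log2 fold change 3.92, SE 0.436, adjusted p = 0.000107), and Gins1, a part of the replicative helicase, rose further beyond DKO (log2 fold change 3.64, SE 0.32, adjusted p = 2.9e-05 against WT). Over all tested genes 26.1% rose. When single libraries were left out, 25 to 26 mitosis genes and 31 to 32 replication genes rose.

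Glycolysis genes and activation genes were likewise raised in DKO already. Of 16 glycolysis genes 10 rose, 9 of them already in DKO, and none fell. Tpi1, triose phosphate isomerase, was at 57.2, 52.2, 56.4, 56.1 and 38.9 CPM in WT, 172, 482, 285, 188 and 189.7 in DKO and 303, 292, 428 and 478 after transfer (log2 fold change 2.85, SE 0.196, adjusted p = 8.18e-06). Hk2, the inducible hexokinase, was at 0.644 to 2.76 CPM in WT, 6.82 to 14.7 in DKO and 22 to 33.7 after transfer with no overlap between neighbouring groups (log2 fold change 4.26, SE 0.373, adjusted p = 2.87e-05), and was the glycolysis gene that rose further. Of 18 activation and memory genes 10 rose, 9 already in DKO, and none fell. Without first-transfer replicate 1, 9 rose and 4 fell, and 1 glycolysis gene fell. Among them S100a11, a calcium-binding protein of effector cells, was at 57.6 to 167 CPM in WT and 591 to 829.3 after transfer (log2 fold change 2.83, SE 0.284, adjusted p = 5.75e-05), and Cd38, an ectoenzyme of activated cells, at 2.42 to 7.31 and 21.7 to 66.7 (log2 fold change 3.40, SE 0.401, adjusted p = 0.000145). Of 17 immediate early genes 3 rose, a smaller share than the 26.1% of all tested genes, among them Egr3, a target of receptor signals, at 181, 168, 175 and 164 CPM against 49.2 to 61.3 in WT (log2 fold change 1.70, SE 0.1, adjusted p = 4.14e-06).

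**Figure D4:**
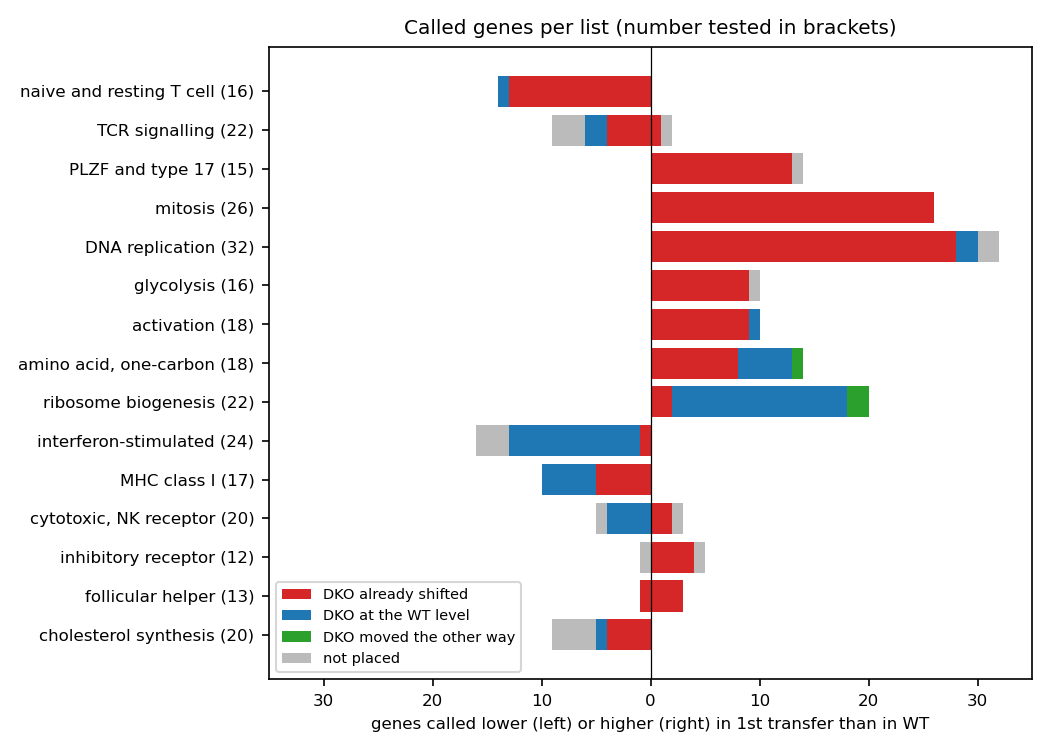
Number of genes called lower (left) and higher (right) in first-transfer than in WT cells in 15 lists, coloured by the class of the gene, with the number tested in brackets. Mitosis (26 of 26), DNA replication (32 of 32) and type 17 genes (14 of 15) rose mostly where DKO had already risen, whereas ribosome biogenesis genes that rose (20 of 22) and interferon-stimulated genes that fell (16 of 24) mostly had DKO at the WT level.

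Ribosome biogenesis genes, by contrast, rose after transfer, most of them with no call between DKO and WT. Of 22 tested, 20 rose and none fell, where 26.1% of all tested genes rose. Of the 20, 16 had DKO at the WT level, against 22.3% of all genes that rose. The median log2 fold change was 1.10 after transfer and -0.06 in DKO. Myc encodes the transcription factor that drives this programme and is itself counted in the list, among the 16. It was at 139.9, 132, 129.9, 148 and 128 CPM in WT, 124, 61.3, 132, 120.3 and 101 in DKO and 192, 363, 368 and 506 after transfer (log2 fold change 1.41, SE 0.229, adjusted p = 0.000853). All first-transfer libraries lay above all WT and all DKO libraries, with replicate 1 lowest. DKO against WT missed the test for Myc (log2 fold change -0.33, adjusted p = 0.14), although every DKO library but replicate 3 lay below every WT library. Gar1, a protein of the small nucleolar particles that modify ribosomal RNA, was at 51, 61.2, 68.9 and 59 CPM against 26.4, 27.3, 23.4, 21.6 and 9.13 in WT and 31, 41.4, 36.8, 25.2 and 29.6 in DKO (log2 fold change 1.48, SE 0.28, adjusted p = 0.00195). Its DKO against WT difference also missed the test (log2 fold change 0.61, adjusted p = 0.0751), although every DKO library but replicate 4 lay above every WT library.

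Polr1b, a subunit of RNA polymerase I, was one of the few genes that DKO had moved the other way. It was at 48.9, 46.1, 55.7, 45.8 and 43.9 CPM in WT, 38.2, 27.1, 41, 32 and 28.2 in DKO, below every WT library, and 70.8, 145, 112 and 135 after transfer, above every WT library (log2 fold change 1.28, SE 0.197, adjusted p = 0.000649), with DKO against WT at -0.53 (adjusted p = 0.00625). Wdr43, a nucleolar processing factor, was the other list member in that class. Odc1, ornithine decarboxylase of polyamine synthesis, and Bop1 had already risen in DKO. Odc1 was at 52.6 to 74 CPM in WT, 148 to 343 in DKO and 236 to 434 after transfer (log2 fold change 2.36, SE 0.183, adjusted p = 1.57e-05). The count of 20 stayed between 19 and 20 when single libraries were left out, and the placement of 16 at the WT level became 18 without DKO replicate 2.

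Most amino acid and one-carbon genes tested rose. Of 18 tested, 14 rose and none fell, where 26.1% of all tested genes rose and 22.1% fell. Of these 14, 8 had already risen in DKO, 5 had DKO at the WT level, and Slc7a1, a transporter of basic amino acids, rose after a fall in DKO. Among all genes that rose, 60% had already risen in DKO and 22.3% had DKO at the WT level, so nothing is read from this split. Psat1, of serine synthesis, was at 40.8 to 55.1 CPM in WT, 80.7 to 153 in DKO and 134 to 361 after transfer (log2 fold change 2.35, SE 0.249, adjusted p = 7.63e-05). Asns, asparagine synthetase, was at 0.774 to 1.07 CPM in WT, 8.47 to 10.3 in DKO and 3.69 to 14.1 after transfer (log2 fold change 3.18, SE 0.378, adjusted p = 0.000145), without a call between the knockout groups (adjusted p = 0.853). Shmt1, the cytosolic serine hydroxymethyltransferase, rose after transfer (log2 fold change 2.26, SE 0.309, adjusted p = 0.000322), with DKO against WT at 0.50 (adjusted p = 0.157), and so did Slc7a5, the large neutral amino acid transporter (log2 fold change 1.44, SE 0.234, adjusted p = 0.000865), with DKO against WT at -0.32 (adjusted p = 0.105).

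Interferon-stimulated genes fell after transfer, most of them with no call between DKO and WT. Of 24 tested 16 fell and none rose, where 22.1% of all tested genes fell. Of the 16, 12 had DKO at the WT level, against 16.2% of all genes that fell. The median log2 fold change was -1.67 after transfer and 0.26 in DKO. Oasl1, a regulator of the interferon response, was at 13.4, 11.4, 11.4, 16.2 and 10.2 CPM in WT, 19, 1.07, 17, 3.95 and 5.76 in DKO and 0.0338, 0, 0.0683 and 0 after transfer, where 3 reads were counted in all (adjusted p = 8.13e-06). Oasl2, an antiviral protein of the same family, was at 41.9, 26.1, 28.8, 46.9 and 30.3 CPM in WT, 63.7, 4.86, 69.4, 12.4 and 20.2 in DKO and 0.81, 0.668, 2.42 and 1.09 (log2 fold change -4.79, SE 0.428, adjusted p = 3.15e-05). For both genes DKO libraries lay on both sides of the WT range, and the first-transfer libraries lay below all others. Isg15, a ubiquitin-like protein, had a mean of 14.5 ± 6.05 CPM in WT, 33.7 ± 23.5 CPM in DKO and 7.01 ± 3.55 CPM after transfer (SD) and did not pass the test against WT (adjusted p = 0.0848).

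Promoters were searched for the interferon-stimulated response element (ISRE), as GAAA, any pair of bases, then GAAA on either strand. The window ran from 250 bases before to 50 after each gene's start in RefSeq (GRCm38.p6). Capitals mark each match, which reads as TTTC, a pair of bases and TTTC where it lies on the other strand. The 250 bases before the start are printed for Rsad2 and Ifit1, which both held a match. The windows of Oasl1 and Oasl2, which also fell, held 0 matches, and that of Isg15, which was not called, held 3.
Rsad2 (viperin), chr12:26456453-26456702, minus strand: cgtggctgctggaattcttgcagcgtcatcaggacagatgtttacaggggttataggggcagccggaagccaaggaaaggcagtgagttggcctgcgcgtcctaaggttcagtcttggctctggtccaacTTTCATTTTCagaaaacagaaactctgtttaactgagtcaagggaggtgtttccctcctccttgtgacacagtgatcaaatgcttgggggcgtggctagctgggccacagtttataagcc
Ifit1, chr19:34640639-34640888, plus strand: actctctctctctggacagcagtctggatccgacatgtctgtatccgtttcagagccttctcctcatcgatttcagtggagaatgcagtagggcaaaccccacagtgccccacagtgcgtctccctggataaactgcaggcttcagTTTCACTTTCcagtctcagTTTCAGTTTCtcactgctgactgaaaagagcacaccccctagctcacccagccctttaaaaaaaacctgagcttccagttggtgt

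The ISRE was found in 298 of 9781 tested genes with a promoter in the table (3.05%), and in 34 of 320 genes that fell with DKO at the WT level (10.6%). Genes that fell and had already fallen in DKO carried it in 46 of 1266 promoters (3.63%), and the corresponding shares among genes that rose were 2.82% and 2.26%. Within the interferon list 9 of 17 promoters held it, and 5 of the 11 whose genes fell. Ifit1 was at 42.8 to 68.9 CPM in WT, 8.97 to 94.7 in DKO and 6.34 to 9.52 after transfer (log2 fold change -2.93, SE 0.194, adjusted p = 7.14e-06). Rsad2 was at 9.32 to 17.9 CPM in WT and 0.815 to 3.17 after transfer (log2 fold change -3.08, SE 0.469, adjusted p = 0.000593). The E-box CACGTG, a motif bound by MYC and related factors, was in 10.3% of tested promoters and in 103 of 639 promoters of genes that rose with DKO at the WT level (16.1%), against 9.36% where DKO had already risen. It was in 3 of 14 promoters of the ribosome biogenesis genes that rose. Promoters of the type 17 list were poor in CpG, with a median of 2.5 CpG in 300 bases over 10 promoters against 21 over all tested. A match describes letters in this window and no binding was measured.

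Antigen presentation genes followed a mixed course. Of 17 MHC class I genes 10 fell and none rose, where 22.1% of all tested genes fell and 26.1% rose. Of the 10, 5 had already fallen in DKO and 5 had DKO at the WT level, against 60.2 and 16.2% of all genes that fell. H2-K1, a classical class I heavy chain, was at 2595, 2720.0, 2331, 2884 and 2118 CPM in WT, 1873, 1497, 1892, 1866 and 1603 in DKO and 1475, 514, 573 and 626 after transfer (log2 fold change -1.66, SE 0.31, adjusted p = 0.00184). Replicate 1 was the highest of the first-transfer libraries. Nlrc5, the transactivator of class I genes, was likewise highest in replicate 1, at 179, 41.5, 50.2 and 22.5 CPM against 255 to 328 (log2 fold change -2.0, SE 0.532, adjusted p = 0.0121). Without replicate 1, 12 of the list fell and 2 rose. The heavy chain genes are close copies, and their counts are uncertain for that reason.

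**Figure D5:**
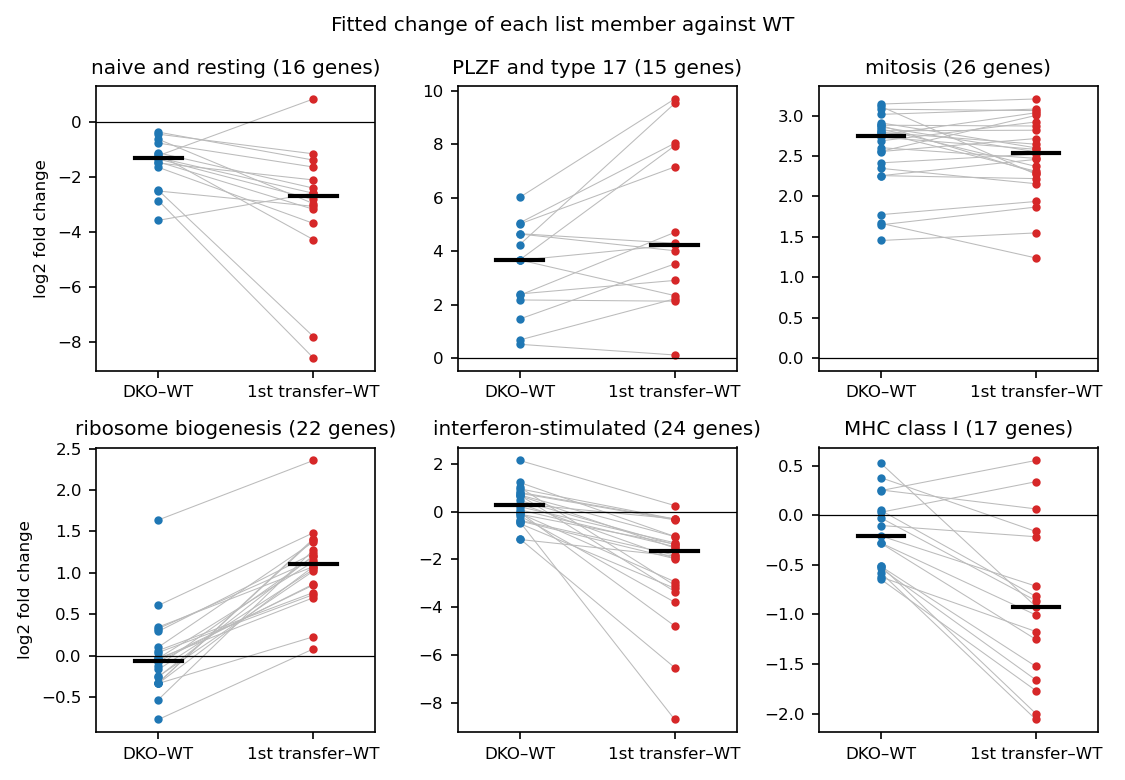
Fitted log2 fold change of every tested member of 6 lists, DKO against WT (left in each panel) and first-transfer cells against WT (right), joined by lines, with bars at the medians. Naive genes went further down, mitosis genes kept medians of 2.75 and 2.54, ribosome biogenesis genes left a median of -0.06 for 1.10, and interferon-stimulated genes one of 0.26 for -1.67; both contrasts share the WT libraries.

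Helper, follicular and inhibitory receptor genes varied widely among the first-transfer libraries. Lag3, an inhibitory receptor, was at 1057, 32.5, 11.9 and 9.03 CPM in the 4 replicates, 7.88 to 27.4 in WT and 234 to 1046 in DKO, where replicate 2 was highest. Its call rested on replicate 1, with a log2 fold change of 3.97 (adjusted p = 0.0359) and 0.02 with adjusted p = 0.981 without that library. It was also lost when any single WT library was left out, with adjusted p from 0.061 to 0.0793. Il21, a follicular helper cytokine, was at 265, 0.0352, 0 and 0 CPM and Tigit, an inhibitory receptor, at 168, 0.0352, 4.61 and 1.73, and neither passed the test. Maf, a regulator of both programmes, was at 959.7, 237, 196 and 77 CPM against 56.3 to 128 (log2 fold change 2.13, SE 0.622, adjusted p = 0.0187), and without replicate 1 the log2 fold change was 1.02 with adjusted p = 0.0347. Icos, a costimulator of follicular helper cells, was higher in every replicate, at 1161, 447, 650.4 and 1177 CPM against 93.3 to 168 (log2 fold change 2.90, SE 0.307, adjusted p = 7.49e-05), and Pdcd1, the receptor PD-1, rose too (log2 fold change 2.59, SE 0.461, adjusted p = 0.00153).

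Of 12 inhibitory receptor genes 5 rose and 1 fell, and of 13 follicular helper genes 3 rose and 1 fell. Over all tested genes 26.1% rose and 22.1% fell. Without replicate 1, 4 inhibitory receptor genes rose and 3 fell, and 2 follicular genes rose and 6 fell. Without replicate 2, 6 follicular genes rose and 1 fell. Among 16 helper regulators and cytokines 8 rose and 3 fell, and without replicate 1, 7 rose and 7 fell. Entpd1, which encodes the ectoenzyme CD39, was the inhibitory receptor list member that fell, with 1.11, 0, 0.0683 and 0.0339 CPM against 2.46 to 7.39 (log2 fold change -4.08, SE 1.08, adjusted p = 0.0117), and -7.06 with adjusted p = 3.85e-05 without replicate 1. The follicular list member that fell was Il6ra, the IL-6 receptor, at 196, 64.2, 14.2 and 26.1 CPM against 477 to 571 in WT and 184 to 278 in DKO (log2 fold change -2.82, SE 0.682, adjusted p = 0.00777).

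Of 20 tested cytotoxic genes and NK-type receptors 3 rose and 5 fell, where 26.1 and 22.1% of all tested genes did so. Of the 5, 4 had DKO at the WT level, against 16.2% of all genes that fell. The median log2 fold change was -1.38. Without replicate 1, 9 fell, and without replicate 2, 5 rose. Prf1, perforin, was at 36.4, 48, 33.2, 44.8 and 39.7 CPM in WT, 19.7, 6.86, 58.9, 22.5 and 21.4 in DKO and 3, 0.0703, 0.307 and 0.407 after transfer (log2 fold change -5.40, SE 0.88, adjusted p = 0.00102). Gzmk, granzyme K, had no read in any first-transfer library against 1.74, 10.7, 2.62, 7.52 and 14.5 CPM in WT. Against a lower limit set at 3 reads in each library, Gzmk was at least 72.3-fold lower (adjusted p = 0.000751). Ifng, interferon gamma, was at 0.203, 0, 0 and 0 CPM against 1.36 to 5.16 (adjusted p = 0.00121).

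Regulatory T cell genes and genes of other cells were checked because the gates differed. Foxp3, the master regulator of regulatory T cells, was at 32.9, 54.3, 37.6, 60.6 and 68.5 CPM in WT, 10.7, 3.6, 15, 42.4 and 42.4 in DKO and 0.169, 0.0352, 0.0341 and 0.136 after transfer (log2 fold change -9.00, SE 0.467, adjusted p = 2.05e-06). Gpr83, a receptor of the same cells, was at 23.5, 22.5, 29.1, 21.9 and 25.8 CPM in WT, 39.6, 2.56, 31.5, 13.4 and 20.9 in DKO and 0.54, 0.105, 0.0341 and 0.204 after transfer (log2 fold change -6.76, SE 0.584, adjusted p = 2.67e-05), with DKO at the WT level. Of 7 regulatory T cell markers 4 fell and 2 rose, where 22.1 and 26.1% of all tested genes did so. Those that rose were Nrp1 and Il2ra, the IL-2 receptor chain CD25 against which WT and DKO cells were gated. Il2ra was at 111, 98, 34.7 and 8.69 CPM against 8.1 to 18 in WT.

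Markers of other blood cells were read in all groups. Of 7 tested macrophage markers 4 fell and none rose. Without first-transfer replicate 1, when more of the 13 in the list passed the filter, 10 fell. A marker that passes the filter only through its WT level can only be called lower. Such counts are therefore a description and nothing is read from them. The summed level of the 13 was 3.62 to 34.5 CPM after transfer, 19.1 to 93.1 in DKO and 11.6 to 152 in WT. Lyz2, lysozyme, was at 0.682, 20.2, 1.11, 112 and 32.4 CPM in WT, highest in replicate 4, and 1.32, 0.211, 1.6 and 0.815 after transfer (log2 fold change -5.05, SE 1.49, adjusted p = 0.0194). Of 5 tested B cell markers 2 fell, Cd79b among them (log2 fold change -3.88, SE 0.587, adjusted p = 0.000569), with summed levels of 518 to 752 CPM after transfer and 688 to 1100 in WT, most of it Ighm, which was not called. Of 2 tested neutrophil markers 1 fell in edgeR and none in DESeq2. This was Ngp (adjusted p = 0.0469, and 0.0657 to 0.102 when any single first-transfer library was left out), at 0 to 28 CPM in WT and 0 in 3 of 4 first-transfer libraries, with summed levels of 0.882 to 3.04 and 0.114 to 69.4 CPM. Among 3 tested NK markers Klrb1c rose and Tyrobp, an adaptor of NK and myeloid cells, fell (log2 fold change -4.47, SE 0.98, adjusted p = 0.00449), with summed levels of 68.0 to 320 CPM after transfer and 22.1 to 45.8 in WT. None of 2 erythroid markers and 1 platelet marker was called. The part of these cells in the genes that fell was not tested. Without first-transfer replicate 1, when more of these markers also passed the filter, 4 NK markers and 3 dendritic cell markers fell, and the same limit holds for these counts.

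Of 4 tested dendritic cell markers 3 rose and 1 fell, where 26.1 and 22.1% of all tested genes did so. Xcr1, a chemokine receptor, reached 4.32, 10.7, 15.5 and 16.9 CPM from 0.147 to 0.465 (log2 fold change 5.40, SE 0.494, adjusted p = 3.51e-05), and Batf3, a transcription factor also used by T cells, 4.39, 2.18, 20.3 and 5.19 from 0.0364 to 0.179 (log2 fold change 6.34, SE 0.782, adjusted p = 0.000182). The defining markers Clec9a and Siglech had no read in any first-transfer library. Itgax, which encodes CD11c, was the marker that fell, at 0 to 1.11 CPM against 0.682 to 5.76 in WT (log2 fold change -3.09, SE 1.15, adjusted p = 0.0489). Its call was lost without first-transfer replicate 2, 3 or 4 and without any single WT library. Cd8b1 had no read after transfer against 34.4, 33.7, 29.9, 31.7 and 39.4 CPM in WT and 2.88, 0.223, 3.08, 3.3 and 4.48 in DKO, which makes it at least 329-fold lower than in WT.

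Among the genes with the largest fitted rises were several with few or no reads in WT. Among those already moving in DKO, Kcnk1, a potassium channel, had 5 reads over all WT libraries, 6.26, 14.3, 2.24, 6.95 and 4.58 CPM in DKO and 51, 178, 121 and 32.9 after transfer (adjusted p = 1.64e-05). Fam83a, a gene known mostly from epithelial cells, had 2 reads over all WT libraries and 0.0352, 0.0371, 0.631, 1.01 and 0.818 CPM in DKO before reaching 16.7, 127, 90.5 and 23.1 (adjusted p = 2.9e-05). Hoxd1, a homeobox gene of body patterning, had no WT read and 13.8, 34.4, 34.2 and 9.94 CPM after transfer, at least 209-fold higher. In DKO it was at only 0.0352, 0, 0.385, 0.196 and 0.327 CPM (adjusted p = 0.0256 against WT). Kcns3, a modulator of voltage-gated potassium channels, was unread in WT and at 2.6, 3.23, 53.1 and 143 CPM, on average at least 456-fold higher, with replicates 3 and 4 far above 1 and 2. In DKO Kcns3 was at 0, 0, 0.175, 0.163 and 0.196 CPM (adjusted p = 0.0472 against WT). For Hoxd1 and Kcns3 the place among genes already moving in DKO thus rests on few reads. Grik2, a glutamate receptor subunit, and Vmn2r26, a vomeronasal receptor, were unread in WT and reached 4.06 to 15 and 0.916 to 30.7 CPM, at least 89.3- and 88.3-fold higher. Their DKO levels were 0.176 to 2.78 and 0.0352 to 1.0 CPM.

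Such genes also appeared with DKO at the WT level, and at unequal levels in the 4 replicates. Cntnap1, a neuronal adhesion protein, was at 1.36, 1.56, 1.44, 1.25 and 1.49 CPM in WT, 0.739, 1.85, 1.44, 4.57 and 5.4 in DKO and 31.8, 162, 65.7 and 46.3 after transfer (log2 fold change 5.75, SE 0.479, adjusted p = 2.43e-05). Ankrd63 was at 9.35, 73, 19 and 5.23 CPM (log2 fold change 8.57, SE 1, adjusted p = 0.000155), Fam184b at 12.4, 57.7, 62.5 and 5.53 (log2 fold change 6.87, SE 0.807, adjusted p = 0.00016) and Hs3st3a1, a heparan sulphate sulphotransferase, at 2.7, 10.4, 9.52 and 2 (log2 fold change 5.58, SE 0.635, adjusted p = 0.000113). Dnah9, an axonemal dynein of cilia, was highest in replicates 3 and 4, at 3.85, 1.48, 119 and 52.5 CPM (log2 fold change 8.42, SE 1.39, adjusted p = 0.00109). Khdrbs3, an RNA-binding protein, was at 0.54, 62.4, 7.47 and 2.92 CPM and rested largely on replicate 2, with a log2 fold change of 6.14 and 3.83 with adjusted p = 0.00426 without it. Slitrk6, Cdh18 and Olfr523, a neuronal membrane protein, a cadherin and an olfactory receptor, were unread in WT, at 0.916 to 30.8, 0.543 to 20.3 and 1.55 to 17.8 CPM after transfer, and not placed with regard to DKO.

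Among the genes with the largest fitted falls, several had no read left. Among those falling already in DKO, Adamts14, a procollagen protease, was at 12.2, 10.6, 13.8, 8.23 and 4.86 CPM in WT, 3.13, 1.22, 3.96, 2.51 and 1.47 in DKO and without a read after transfer, at least 96.9-fold lower than in WT. Dntt, the terminal transferase of receptor recombination, was likewise unread after transfer and at 4.88 to 9.21 CPM in WT, at least 64.7-fold lower. Tbxa2r, the thromboxane receptor, had 3 reads after transfer in all and 64.8, 59.6, 47, 57 and 42.5 CPM in WT (adjusted p = 2.51e-06). Unc5cl had 2 reads and 16.9 to 20.5 CPM in WT (adjusted p = 1.51e-06). H2-Ob, a chain of the class II modulator H2-O, was at 0, 0.0703, 0 and 0.136 CPM after transfer and 38.4 to 61.7 in WT (adjusted p = 4.48e-06), with DKO at 25.7, 2.45, 17.8, 25.8 and 25.1.

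Fgf13, an intracellular regulator of sodium channels, was at 25.5, 28.1, 21.9, 27.4 and 41.5 CPM in WT, 20.2, 2.11, 21.1, 16.4 and 16.4 in DKO and 0.135, 0.0703, 0.0683 and 0.272 after transfer (log2 fold change -7.66, SE 0.427, adjusted p = 3.12e-06). It counts among genes with DKO at the WT level because DKO against WT missed the test (log2 fold change -0.92, SE 0.44, adjusted p = 0.111), although every DKO library lay below every WT library. In the same class Cd86, a costimulatory ligand, was at 11.9, 9.03, 9.33, 16 and 12.7 CPM in WT, 19.4, 1.85, 15.7, 16.4 and 15.4 in DKO and 0.203, 0, 0.239 and 0.204 after transfer (log2 fold change -6.14, SE 0.625, adjusted p = 6.25e-05). Tspan9, a tetraspanin, was at 11.7 to 35 CPM in WT and 0.0352 to 0.478 after transfer (log2 fold change -6.29, SE 0.617, adjusted p = 5.36e-05). For Cd86, Gpr83 and Oasl1, as for Fgf13, DKO replicate 2 was the lowest DKO library and lay below every WT library. Over the 491 genes of this class it was the lowest DKO library in 285 (58%), against 7.54 to 17.1% for each of the others. Csf1r, a macrophage receptor, also fell, from 1.25, 4.95, 1.33, 18.1 and 6.31 to 0.101, 0.0352, 0.137 and 0.238 CPM, beside the other macrophage markers.

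The 82 genes that DKO had moved the other way included signalling genes. Prkd3, protein kinase D3, was at 126, 109, 124, 116 and 144 CPM in WT, 48.7, 27.9, 64.8, 53.4 and 54.3 in DKO and 158, 554, 555 and 630.4 after transfer (log2 fold change 1.95, SE 0.332, adjusted p = 0.00117), with DKO against WT at -1.31 (adjusted p = 0.000289). Ptprf, a receptor phosphatase, fell to 0.89 to 3.88 CPM in DKO from 4.64 to 8.56 and reached 16.8, 76.7, 76.3 and 14.2 after transfer (log2 fold change 2.74, SE 0.528, adjusted p = 0.00237). Adgrg3, an adhesion receptor, did likewise (log2 fold change 2.79, SE 0.603, adjusted p = 0.00431), with DKO against WT at -1.49 (adjusted p = 0.0151), and so did Pkd1l3 (log2 fold change 1.56, SE 0.26, adjusted p = 0.001), with DKO against WT at -0.82 (adjusted p = 0.0132) and Fpgs, the enzyme that retains folate in cells (log2 fold change 1.25, SE 0.204, adjusted p = 0.000889), with DKO against WT at -0.67 (adjusted p = 0.00144). In the opposite sense, Epsti1, an interferon-inducible gene, rose to 304, 210.3, 317, 353 and 319.9 CPM in DKO from 125, 118, 122, 164 and 114 in WT and was at 95, 86.7, 61.8 and 66.7 after transfer (log2 fold change -0.72, SE 0.166, adjusted p = 0.00554), with DKO against WT at 1.23 (adjusted p = 0.000108). Cacnb3, a calcium channel subunit, was at 7.73, 8.01, 7.6, 7.2 and 4.23 CPM, 22.1, 5.93, 18.6, 15.3 and 11.8 in DKO and 0.877, 0.0352, 0.137 and 0.0339 after transfer (log2 fold change -4.65, SE 0.863, adjusted p = 0.00184), and Ggt1, an enzyme of glutathione turnover, fell after transfer (log2 fold change -1.23, SE 0.333, adjusted p = 0.0123) having risen in DKO (log2 fold change 0.63, SE 0.217, adjusted p = 0.0351).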

How the data were processed

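RNA from sorted spleen cells was sequenced. Per the submitters' processing notes, reads were handled with fastp 0.21.0 and STAR 2.7.5a on mm10 (GRCm38), and DESeq2 is named without a version. The deposited files hold whole-number read counts per gene; the unstranded column was used, and reads outside genes (16.9 to 23.4%) were left out. The deposited receptor tables give read counts per rearrangement, and the steps that made them are not given in the sources used here. Of 55487 gene identifiers, 55227 matched the annotation given.

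Counts were tested with edgeR 4.0.16 (R 4.3.3, limma 3.58.1): TMM factors, filterByExpr, robust quasi-likelihood fits of each pair of groups on 13748 genes, Benjamini-Hochberg adjustment over all of them, calls at adjusted p below 0.05. The script was tested on simulated data. Shares of rearrangements were compared by exact permutation tests. Named genes were, per class and direction, the 6 (3 for genes not placed) with the largest fold change, at least 5 CPM and no overlap with WT, plus up to 3 called members of each of 34 gene lists, 10 of them cell type markers, and a fixed set. This rule gives 130 genes, of which 100 are printed, and some are not reported here; other genes named were chosen after their values were seen. The comparison, members and lists were chosen with earlier results of these data known. Other settings tried were the DESeq2 1.42.0 test, relative log expression factors, no filter, 1 joint fit, a replicate block, a fold threshold, a stricter WT level, single libraries left out, libraries numbered 1 to 3, male libraries, and DKO without the young libraries. Replicate numbers were not taken to pair libraries.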

Additional observations from a re-analysis of the deposited data

Results flagged for a closer look

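The 100 printed genes gave at most 300 gene-by-group sets of 4 or 5 libraries, and sets with no value of at least 1 CPM were passed over. With the receptor shares, which were checked apart from these sets, 31 values stood far from the rest of their group. The measure was the gap to the nearest library over the range, on the log2 scale of CPM plus 0.5 for genes. Chance alone gives about 1 in 20 sets, but the sets checked were not counted, so the 31 are not set against that share. DKO replicate 2 held 14 of the gene values. It was low for Bcl11b (96.5 CPM, others 247 to 274), Cd247 (178 CPM, others 242 to 257), Cd55 (2.08 CPM, others 11.2 to 15.3), Cd86 (1.85 CPM, others 15.4 to 19.4) and Cd8b1 (0.223 CPM, others 2.88 to 4.48). Low values were also those of Epsti1 (210.3 CPM, others 304 to 353), Fgf13 (2.11 CPM, others 16.4 to 21.1), H2-Ob (2.45 CPM, others 17.8 to 25.8), Ptprf (0.89 CPM, others 3.04 to 3.88) and Tbxa2r (2.78 CPM, others 19.4 to 30.8). It was high for Cd160 (182 CPM, others 65.5 to 76.1), Lag3 (1046 CPM, others 234 to 319), Odc1 (343 CPM, others 148 to 172) and Zbtb7b (275 CPM, others 171 to 192). The leading rearrangement of this library took 77.9% of TRA and 77.8% of TRB reads, where the other DKO libraries reached at most 12.5 and 13.6%. 

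DKO replicate 1 stood apart for Il6ra (278 CPM, others 184 to 199.9), Tcrg-C4 (2.22 CPM, others 14.3 to 23.9) and Zbtb16 (1.76 CPM, others 8.09 to 13.3). WT replicate 5 was low for Cacnb3 (4.23 CPM, others 7.2 to 8.01), Cd247 (316 CPM, others 440.5 to 482), Gar1 (9.13 CPM, others 21.6 to 27.3) and Il4ra (258 CPM, others 362 to 406). It was also low for Lat (475 CPM, others 581 to 589), Tpi1 (38.9 CPM, others 52.2 to 57.2) and Zbtb7b (226 CPM, others 356 to 379). It was high for Cd55 (102 CPM, others 66.3 to 74.8). WT replicate 4 was high for Epsti1 (164 CPM, others 114 to 125). First-transfer replicate 1 was high for Entpd1 (1.11 CPM, others 0 to 0.0683) and Itgax (1.11 CPM, others 0 to 0.102). It was low for Prkd3 (158 CPM, others 554 to 630.4).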

How the results depend on the processing

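The counts of genes that rose and fell held within 1.5 times under DESeq2, other size factors, no filter, 1 joint fit, the replicate block, libraries numbered 1 to 3 and male libraries, and became 2104 and 1810 with a log2 fold change above 1. The sorting by DKO was less stable. Genes that rose with DKO at the WT level numbered 0 without the young DKO libraries and 0 in libraries numbered 1 to 3, where first-transfer against DKO gave 3 and 0 calls at adjusted p below 0.05 in edgeR (3226 and 2736 at an unadjusted p below 0.05; DESeq2 was not run on these subsets), 360 in male libraries and 366 with the fold threshold; those that fell numbered 0, 0, 314 and 313, and 928 in the joint fit. Genes that fell and had already fallen in DKO were 942 in libraries 1 to 3 and 1142 with the fold threshold. Genes that rose with DKO moved the other way were 33 with no filter, 35 in the joint fit, 34 without the young libraries, 11 in libraries 1 to 3 and 24 with the fold threshold; those that fell were 40 with DESeq2, 15 with no filter, 4 in libraries 1 to 3, 41 in male libraries and 13 with the fold threshold. Genes not placed that rose were 1071 with no filter, 1803 without the young libraries, 1552 in libraries 1 to 3 and 212 with the fold threshold; those that fell were 1753 without the young libraries, 1351 in libraries 1 to 3 and 342 with the fold threshold. With any single DKO library left out, first-transfer against DKO gave 1557 to 2648 calls. Fewer libraries or a stricter call can lower such counts. How far these, or other features of the libraries left out, account for the smaller counts was not tested.

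With single libraries left out, 3076 to 4002 genes rose (1775 to 2214 already, 416 to 1231 at the WT level, 34 to 121 the other way, 462 to 1006 not placed) and 2497 to 3869 fell (1427 to 1818, 260 to 1144, 10 to 191 and 552 to 1177). The highest WT-level and other-way counts are those without first-transfer replicate 1. The TRA difference ranged from 80.02 to 84.28 and the TRB difference from 88.18 to 91.03 percentage points. Tet2, not called, changed sign to 0.033 without first-transfer replicate 3 and in male libraries (the same libraries), 0.037 without replicate 4, 0.0056 without WT replicate 3 and 0.090 in libraries 1 to 3, and passed the test at -0.443 (adjusted p = 0.0484) without replicate 1.

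With replicate number as a block, genes with DKO at the WT level were 82 that rose and 81 that fell, 1066 that rose were not placed, and first-transfer against DKO gave 419 calls in place of 2774. The numbers share no animal in the labels, and same-numbered first-transfer and WT libraries correlated at -0.161, -0.021, 0.061 and 0.104 in their deviations from the group means. For DKO and WT the correlations were 0.34, 0.123, -0.037, 0.242 and 0.185, and for first-transfer and DKO libraries -0.051, -0.013, 0.069 and 0.245. In no pair of groups did every number exceed 0.1, so the numbers were not taken as a pairing, although 4 of 5 did between DKO and WT. Depth limits genes with a handful of reads, for which levels or bounds are given.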

Other observations

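Of 20 tested genes of cholesterol synthesis and uptake 9 fell, 4 of them already in DKO, and none rose, with a median log2 fold change of -0.48. Over all tested genes 26.1% rose and 22.1% fell. When single libraries were left out, 6 to 10 of the list fell, the 6 without WT replicate 2, and 2 rose without first-transfer replicate 1. Sqle, squalene epoxidase, was at 14.4, 9.46, 10.2 and 18.9 CPM against 27.4 to 38.7 in WT (log2 fold change -1.26, SE 0.232, adjusted p = 0.00166). Of 20 genes of oxidative phosphorylation 10 rose, all already in DKO, and 6 rose without first-transfer replicate 4. Cox5a, a subunit of cytochrome c oxidase, was at 41.9 to 47.2 CPM in WT, 63.2 to 79.4 in DKO and 53.9 to 96.5 after transfer (log2 fold change 0.85, SE 0.162, adjusted p = 0.00199).

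The list of DNA damage and repair held 33 tested genes, of which 23 rose and 5 fell. Of the 23, 14 had already risen in DKO and 7 had DKO at the WT level. Among all genes that rose these shares were 60 and 22.3%, and nothing is read from the split. Of 17 targets of p53, 6 rose and 6 fell. Over all tested genes 26.1% rose and 22.1% fell. Cdkn1a, the cell cycle inhibitor p21, was at 9.65, 9.84, 7.64 and 3.16 CPM against 0.644 to 1.34 (log2 fold change 2.87, SE 0.383, adjusted p = 0.000282). Trp53 itself was at 254, 328, 399 and 432 CPM against 241 to 304 in WT (log2 fold change 0.40, SE 0.159, adjusted p = 0.0628), and without first-transfer replicate 1 its log2 fold change was 0.53 with adjusted p = 0.00514.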
